A study of Mus musculus with 6 samples.

Results

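Peptide loading and immunoproteasome genes are represented here by Tap1, Tap2, Tapbp, Tapbpl, B2m, Psmb8, Psmb9, Psmb10, Psme1 and Psme2. They were taken by gene symbol, and all 10 were found among the 11844 genes to which the transcripts of the deposited file could be assigned. C2C12 cells, a mouse myoblast line that fuses into myotubes in low-serum medium, were transfected with a negative control siRNA (siNC) or with CNN3 siRNA (siCNN3), which is directed against the actin-binding protein calponin 3. RNA of 3 libraries per group was sequenced, and FPKM (fragment numbers corrected for transcript length and for library size) was measured. Both groups received an siRNA and were placed in horse serum for differentiation, a protocol in which the study transfected the cells a second time. The study's methods give an hour of harvest for its differentiation analyses as a whole, without stating it for the sequenced cells. An untransfected group was not analysed here. The sample labels call the cells mouse myotubes, whereas the study calls them differentiating myoblasts.

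Nearly all nucleated cells show peptides of their own proteins on class I molecules of the major histocompatibility complex. The proteasome cuts the proteins, the TAP1/TAP2 transporter carries the peptides into the endoplasmic reticulum, tapasin (Tapbp) holds the empty class I molecule at the transporter, and beta-2-microglobulin (B2m) is the invariant light chain of the finished molecule. Interferons are known to induce 3 catalytic subunits (Psmb8, Psmb9 and Psmb10) that take the places of Psmb5, Psmb6 and Psmb7 in newly built proteasomes, which are then called immunoproteasomes, and to induce the PA28 activator made of Psme1 and Psme2. Skeletal muscle cells are known for low class I expression at rest, which interferon raises.

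Of the 10 genes, 5 lie on chromosome 17 of GRCm38, in the region of the major histocompatibility complex. Psmb9 (34181987 to 34187764, minus strand), Tap1 (34187553 to 34197225), Psmb8 (34197721 to 34201454) and Tap2 (34203527 to 34216321, all plus strand) are neighbours, and Tapbp lies at 33915899 to 33929292. B2m is on chromosome 2 (122147686 to 122153083), Tapbpl on chromosome 6 (125223933 to 125231860), Psmb10 on chromosome 8 (105935735 to 105938444), and Psme1 and Psme2 on chromosome 14 (55578123 to 55581529 and 55587441 to 55591113). The annotated bodies of Tap1 and Psmb9 overlap head to head by 212 bases. For 9 of the 10 genes the annotation places another gene over some of their bases, counting whole gene bodies with introns. For Psme1 these were 14 bases. Overlap of exons was not examined. It is not stated whether strand was used in making the FPKM, so reads from shared bases cannot be assigned to a gene with certainty.

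Promoter sequences (250 bases before to 50 bases after the start of transcription, RefSeq, GRCm38.p6) were held for 8 of the 10 genes, and those of Tap2 and Tapbpl were not in the table. They were searched on both strands for a core of the interferon-stimulated response element (GAAA and GAAA separated by 2 bases), for a core of the gamma-activated site (TTC and GAA separated by 3 bases) and for an NF-κB-like site (GGG and TTTCC separated by 2 bases). The first was found in 2 of the 8 promoters (B2m and Psme1), compared with 3.99% of the promoters of all 27025 genes in the table. The second was found in 1 (Psmb8), compared with 9.55% of all, and the third in 1 (B2m), compared with 1.89% of all. In the other 5 promoters these letters were not in the window. The promoter of Tap1 is shown because Psmb9 is read from it in the other direction, the windows of the pair sharing 275 of their 300 bases, and the other 3 because they hold a match, which is in capitals. A match is only a description of the sequence.
Tap1, chr17:34187306-34187605, plus strand, no match: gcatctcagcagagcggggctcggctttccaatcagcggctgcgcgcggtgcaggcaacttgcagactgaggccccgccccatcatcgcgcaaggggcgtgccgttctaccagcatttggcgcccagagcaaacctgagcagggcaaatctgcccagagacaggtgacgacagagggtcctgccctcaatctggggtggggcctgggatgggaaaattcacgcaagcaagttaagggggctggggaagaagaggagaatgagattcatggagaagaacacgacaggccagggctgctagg
B2m, chr2:122147437-122147736, plus strand, response element core at position -139 and NF-κB-like site on the minus strand at -126 from the start: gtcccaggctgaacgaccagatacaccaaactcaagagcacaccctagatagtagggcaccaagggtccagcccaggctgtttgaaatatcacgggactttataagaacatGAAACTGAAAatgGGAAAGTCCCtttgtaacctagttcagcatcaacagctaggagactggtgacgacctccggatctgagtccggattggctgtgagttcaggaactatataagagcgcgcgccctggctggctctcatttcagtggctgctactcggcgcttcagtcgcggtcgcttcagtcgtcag
Psmb8, chr17:34197945-34198244, plus strand, gamma-activated site core at position -97: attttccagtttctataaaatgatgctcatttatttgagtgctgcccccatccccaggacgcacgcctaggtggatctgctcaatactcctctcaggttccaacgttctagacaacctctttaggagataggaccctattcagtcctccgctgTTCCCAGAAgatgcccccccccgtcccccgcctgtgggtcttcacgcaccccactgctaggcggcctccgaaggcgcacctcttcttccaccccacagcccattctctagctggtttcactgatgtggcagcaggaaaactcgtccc
Psme1, chr14:55578244-55578543, plus strand, response element core on the minus strand at position 9: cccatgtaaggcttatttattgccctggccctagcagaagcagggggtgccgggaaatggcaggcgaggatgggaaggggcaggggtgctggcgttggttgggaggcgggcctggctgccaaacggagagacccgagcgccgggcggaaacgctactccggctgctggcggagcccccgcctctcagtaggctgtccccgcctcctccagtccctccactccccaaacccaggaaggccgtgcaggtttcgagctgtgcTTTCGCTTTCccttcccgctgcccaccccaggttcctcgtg

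The question of the comparison was which RNAs differ between cells with and without knockdown of CNN3. Levels were higher in siCNN3 for all 10 genes. Of these, 6 rose by the test across all genes (limma on log2(FPKM + 1), Benjamini-Hochberg adjusted p below 0.05), which were Psmb8, Psmb9, Psmb10, Psme1, Tap1 and B2m, and 0 fell. Among the 11602 genes tested, 1.73% were called higher and 0.336% lower. Every siCNN3 library lay above every siNC library for 9 of the 10 genes, compared with 13.8% of all genes. The median log2 fold change of the 10 genes was 1.73, compared with 0.03 over all genes tested. Of all called genes 83.8% were higher, and 68.3% after quantile normalization, under which the same 6 of these genes were called. The 6 calls depended on single libraries. Limma called 4 of the 10 without siNC replicate 1, 3 without siCNN3 replicate 1 and 2 without siCNN3 replicate 2. It called 7 without siNC replicate 2 or siCNN3 replicate 3. Without siNC replicate 3 it called 0 of the 10, with adjusted p between 0.0585 and 0.428. Unadjusted p was still below 0.05 for all 10 in that fit, and the genes called higher over the whole table fell from 201 to 16. Adding 1 FPKM before taking logs makes fold changes smaller for genes of low level.
The depth of the libraries is unknown, since the file holds FPKM only, and a value listed at exactly 0 can be a failed estimate. Cnn3 itself was at 62.8, 61.4 and 62.8 FPKM across siNC libraries 1 to 3 and 19.04, 39.2 and 25.6 FPKM across siCNN3 libraries 1 to 3 (log2 fold change -1.19, adjusted p = 0.0665, limma). SiNC replicate 1 had the smallest sum of FPKM (322621, the others between 347064 and 355591) and the most transcripts listed at 0 (2131, the others between 978 and 1333). Nothing in the labels says that the 3 libraries of a group came from separate cultures, so p-values measure the spread between these libraries, which may be technical.

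**Figure D1:**
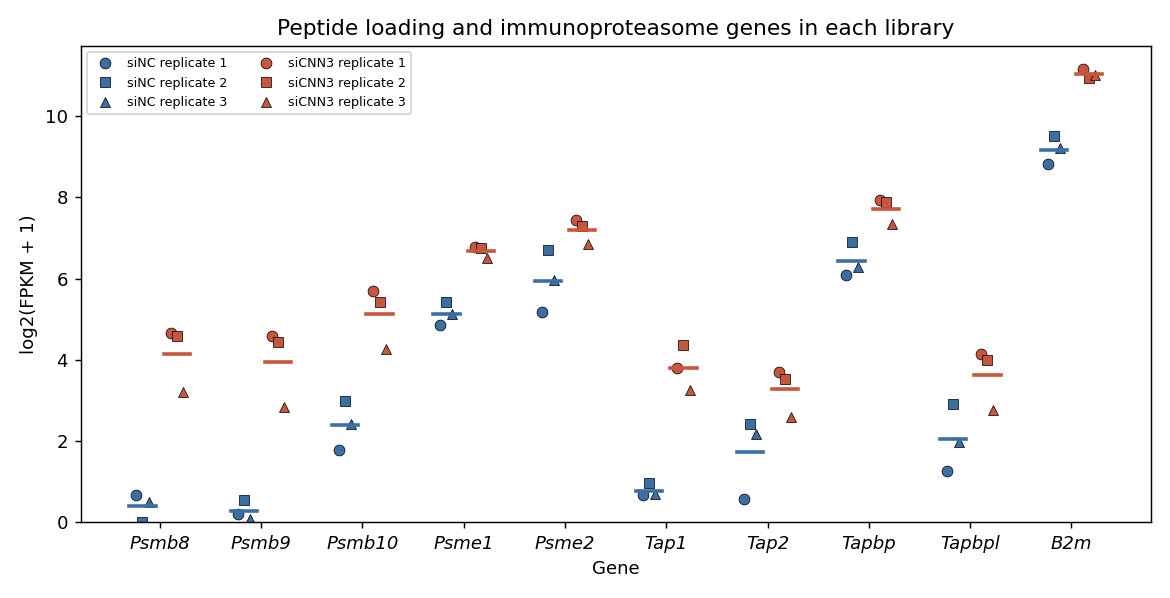
Level of each gene in each library on the log2(FPKM + 1) scale (y axis), with genes along the x axis, siNC in blue and siCNN3 in red, 1 symbol per replicate and a bar at the group mean. The siCNN3 points lie above all siNC points for every gene except Tapbpl, and siCNN3 replicate 3 (triangle) is the lowest red point for every gene except B2m.

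The catalytic subunits of the immunoproteasome were at or below 6.96 FPKM in siNC and between 6.12 and 51.1 FPKM in siCNN3. Psmb8, which encodes the chymotrypsin-like subunit beta-5i, was listed at 0.579, 0 and 0.425 FPKM across siNC libraries 1 to 3 and 24.1, 23.1 and 8.21 FPKM across siCNN3 libraries 1 to 3. The lowest siCNN3 library was 14.2 times the highest siNC library, and siCNN3 replicate 3 lay well below the others. Psmb8 rose by 3.76 ± 0.411 on the log2 scale (estimate ± SE, limma, adjusted p = 0.0108). Its transcript ENSMUST00000173441.7 took 1.63 of the 8.21 FPKM in siCNN3 replicate 3 and at most 0.167 FPKM in the other libraries.
Psmb9 encodes beta-1i, which cuts after branched hydrophobic residues in place of the acidic ones preferred by the subunit it replaces. It was at 0.155, 0.460 and 0.0575 FPKM across the siNC libraries and 23.1, 20.8 and 6.12 FPKM across the siCNN3 libraries. The groups were far apart, with means of 0.224 ± 0.210 and 16.7 ± 9.20 FPKM (SD, n = 3), and all 3 siNC libraries were below 1 FPKM. The fitted change of Psmb9 was 3.68 ± 0.461 (log2 scale, SE, limma, adjusted p = 0.0154).
Psmb10 encodes beta-2i, the inducible trypsin-like subunit. It was at 2.42, 6.96 and 4.36 FPKM across the siNC libraries and 51.1, 41.8 and 18.1 FPKM across the siCNN3 libraries, so that it was the only one of the 3 with a level above 1 FPKM in every siNC library. The means were 4.58 ± 2.28 and 37.0 ± 17.0 FPKM (SD, n = 3), and the change on the log2 scale was 2.73 ± 0.444 (SE, adjusted p = 0.0349, limma). In siCNN3, Psmb8 and Psmb9 were at nearly equal FPKM, their ratio being 1.05, 1.11 and 1.34 in the 3 libraries, and Psmb10 was at 2.22, 2.01 and 2.96 times Psmb9.
Leaving out siNC replicate 3 or siCNN3 replicate 2 ended the call of Psmb8 (limma, adjusted p = 0.0656 and 0.053). For Psmb9 and Psmb10 the call held when siNC replicate 2 or siCNN3 replicate 3 was dropped, but without replicate 1 or 3 of siNC, or replicate 1 or 2 of siCNN3, the adjusted p lay between 0.0623 and 0.0906 for Psmb9 and between 0.101 and 0.15 for Psmb10. Over all alternatives the adjusted p ran from 0.000839 to 0.0656 for Psmb8, from 0.000733 to 0.0906 for Psmb9 and from 0.00903 to 0.15 for Psmb10. With a pseudocount of 0.1 in place of 1 the log2 fold changes of Psmb8 and Psmb9 were 5.67 and 5.68, with both still called (adjusted p = 0.0238 and 0.0139).

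The constitutive subunits that these 3 replace were at much higher levels in both groups, and 0 of them were called by limma. Psmb5 averaged 48.9 ± 9.15 FPKM under siNC and 54.1 ± 10.3 FPKM under siCNN3 (log2 fold change 0.14, adjusted p = 0.767). Psmb6 was at 131 ± 6.48 and 154 ± 8.53 FPKM (log2 fold change 0.23, adjusted p = 0.305), and Psmb7 at 81.2 ± 13.0 and 90.9 ± 7.15 FPKM (log2 fold change 0.17, adjusted p = 0.611, all SD, n = 3). Psmb6 alone had an unadjusted p below 0.05, and its siCNN3 libraries all lay above the siNC libraries.
Since FPKM is per length, each inducible subunit can be given as a share of the FPKM of its pair. The share of Psmb8 in Psmb8 + Psmb5 was 1.45%, 0% and 0.849% in siNC and 28.4%, 28.1% and 16.3% in siCNN3. Psmb9 held 0.125%, 0.336% and 0.0434% of Psmb9 + Psmb6 in siNC and 12.6%, 11.7% and 4.07% in siCNN3. Psmb10 held 3.49%, 7.0% and 4.93% of Psmb10 + Psmb7 in siNC and 34.9%, 30.6% and 18.0% in siCNN3. In all siCNN3 libraries the constitutive partner still made up most of each pair. The mean shares differed by 23.5, 9.27 and 22.7 percentage points for Psmb8, Psmb9 and Psmb10. The siCNN3 libraries were above all 3 siNC libraries in each case, giving p = 0.1 in an exact permutation test (two-sided), the smallest that 3 against 3 libraries allow (adjusted p = 0.1 over the 4 shares computed). These are shares of RNA, and the make-up of the proteasome protein was not measured.

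**Figure D2:**
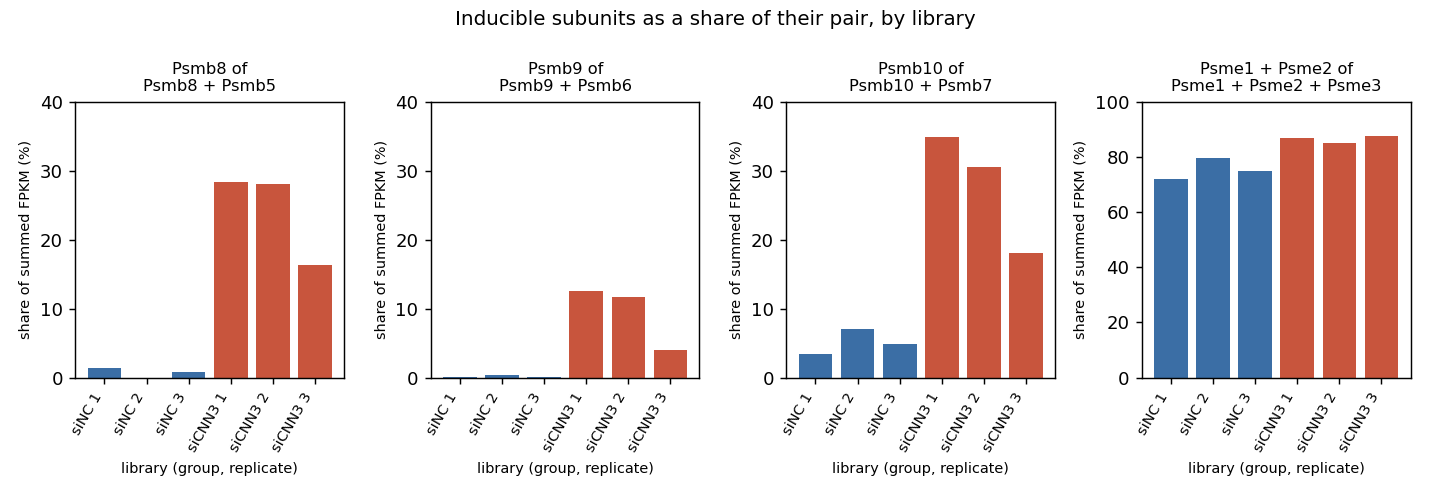
Share (y axis, percent) of the summed FPKM of each pair or set held by the inducible members, 1 bar per library (x axis), siNC in blue and siCNN3 in red, with y axes to 40% for the first 3 panels and to 100% for the last. All red bars are higher than all blue bars in each panel, and the lowest red bar of the 3 catalytic subunits is siCNN3 replicate 3.

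The subunits of the PA28 activator, a ring that caps the proteasome core and opens it to peptides, were already above 20 FPKM in every siNC library. Psme1 (PA28 alpha) was at 27.9, 42.0 and 34.2 FPKM across the siNC libraries and 109.0, 106 and 89.8 FPKM across the siCNN3 libraries. The lowest siCNN3 library had 2.14 times the FPKM of the highest siNC library. Psme1 rose by 1.54 ± 0.17 on the log2 scale (estimate ± SE, limma, adjusted p = 0.0110, from 0.00816 to 0.0719 over the alternatives), and was not called without siNC replicate 3 (adjusted p = 0.0719), siCNN3 replicate 1 (0.0617) or siCNN3 replicate 2 (0.0648).
Psme2 (PA28 beta) was at 35.2, 103 and 61.2 FPKM across the siNC libraries and 173, 157 and 115 FPKM across the siCNN3 libraries. The highest siNC and the lowest siCNN3 library nearly met, with a ratio of 1.12 between them. The fitted change of Psme2 was 1.26 ± 0.370 (log2 scale, SE), and it was not called (adjusted p = 0.157, limma) in any of the alternatives (adjusted p from 0.0625 to 0.430). In siNC replicate 2, 22.9 of its FPKM were given to transcript ENSMUST00000111378.9, which had at most 2.64 FPKM in the other libraries. The retrogene Psme2b on chromosome 11 matches the main Psme2 transcript over 794 aligned positions with 99.4% identity, so that the division of reads between the 2 genes is uncertain. Psme2b was listed at 4.26, 4.64 and 4.41 FPKM across the siNC libraries and 22.6, 24.8 and 15.5 FPKM across the siCNN3 libraries and was called higher (log2 fold change 1.99, adjusted p = 0.00993, limma). With the FPKM of the pair summed, an alternative added after the data were seen, the log2 fold change was 1.34 (adjusted p = 0.121).
The other proteasome activators did not pass the test. Psme3, the nuclear PA28 gamma, averaged 31.1 ± 6.28 FPKM under siNC and 39.0 ± 8.86 FPKM under siCNN3 (adjusted p = 0.538, limma), and Psme4, which encodes PA200, averaged 26.5 ± 2.48 and 20.9 ± 1.73 FPKM (log2 fold change -0.33, adjusted p = 0.277, SD, n = 3). The FPKM of Psme1 and Psme2 together made up 72.1%, 79.7% and 74.9% of the PA28 genes in siNC and 86.9%, 85.2% and 87.6% in siCNN3. This share was higher in all 3 siCNN3 libraries, by 11 percentage points on average (exact permutation test, two-sided, p = 0.1, adjusted p = 0.1 over the 4 shares).

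Of the transporter genes Tap1 was called and Tap2 was not, and the difference between their changes was not tested. Tap1 was at 0.590, 0.961 and 0.627 FPKM across the siNC libraries and 12.8, 19.7 and 8.60 FPKM across the siCNN3 libraries. The lowest siCNN3 library was 8.95 times the highest siNC library. Tap1 rose by 3.03 ± 0.285 on the log2 scale (estimate ± SE, limma, adjusted p = 0.00973, from 0.00202 to 0.0585 over the alternatives). It was not called without siNC replicate 3 (adjusted p = 0.0585), nor from its most abundant transcript alone (log2 fold change 2.36, adjusted p = 0.0512). The estimates moved between its transcripts, since ENSMUST00000041633.14 was listed at 0, 10.7 and 4.92 FPKM in siCNN3 replicates 1, 2 and 3 and ENSMUST00000170086.7 at 11.4, 8.34 and 3.68 FPKM.
Tap2, the other chain of the transporter, was at 0.478, 4.31 and 3.54 FPKM across the siNC libraries and 12.0, 10.6 and 5.05 FPKM across the siCNN3 libraries. Its groups did not overlap but came close, at 4.31 against 5.05 FPKM, and it was not called (log2 fold change 1.56 ± 0.529 SE, adjusted p = 0.214, limma, from 0.116 to 0.529 over the alternatives). The ratio of Tap1 to Tap2 FPKM was 1.23, 0.223 and 0.177 in siNC and 1.07, 1.86 and 1.70 in siCNN3, so that siNC replicate 1 overlapped with the siCNN3 libraries in this ratio.
Tapbp was by far the more abundant of the chaperones that edit the peptide. It was at 67.4, 119 and 76.4 FPKM across the siNC libraries and 244, 236 and 162 FPKM across the siCNN3 libraries, without overlap. Its log2 fold change was 1.30 ± 0.250 (SE), and the adjusted p of 0.0569 (limma, from 0.0295 to 0.213 over the alternatives) missed the threshold. Tapbp was called under median-of-ratios scaling (adjusted p = 0.0464), without siNC replicate 2 (0.0313) and without siCNN3 replicate 3 (0.0295).
Tapbpl encodes TAPBPR, a relative of tapasin that edits peptides outside the loading complex. It was at 1.41, 6.52 and 2.93 FPKM across the siNC libraries and 16.7, 14.9 and 5.78 FPKM across the siCNN3 libraries. It was the only one of the 10 genes whose groups overlapped, because siNC replicate 2 exceeded siCNN3 replicate 3. The change on the log2 scale was 1.58 ± 0.508 (SE, adjusted p = 0.189, limma, from 0.0706 to 0.505 over the alternatives).
B2m was at 450.5, 723 and 593 FPKM across the siNC libraries and 2305, 1974 and 2071 FPKM across the siCNN3 libraries. The siCNN3 libraries lay within a narrow band, with a coefficient of variation of 8.04% compared with between 10.2% and 55.2% for the other 9 genes in siCNN3. B2m rose by 1.87 ± 0.175 on the log2 scale (estimate ± SE, limma, adjusted p = 0.00973, from 0.00644 to 0.0585 over the alternatives), and was not called without siNC replicate 3 (adjusted p = 0.0585).

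**Figure D3:**
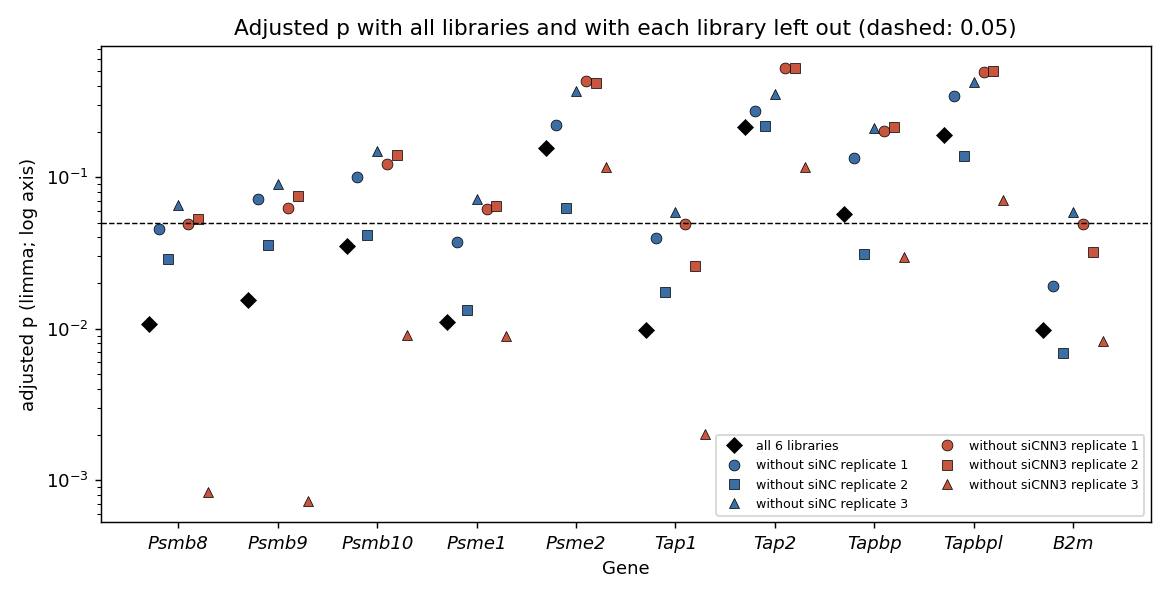
Adjusted p of limma (y axis, log scale) for each gene (x axis) with all 6 libraries (black diamonds) and with 1 library left out (blue, a siNC library; red, a siCNN3 library), and the threshold of 0.05 dashed. Blue triangles (without siNC replicate 3) are above the line for all 10 genes, and Psme2, Tap2 and Tapbpl are above it in every fit.

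The libraries of a group were ordered alike across these genes. SiNC replicate 1 was the lowest siNC library for 8 of the 10 genes, and siNC replicate 2 the highest for 9, the exception being Psmb8, listed at 0 there. SiCNN3 replicate 3 was the lowest siCNN3 library for 9 of the 10, and siCNN3 replicate 1 the highest for 9. The same counts over all genes were not computed. The order was not particular to these genes. In each of the 4 lists of other proteasome genes described below, the summed FPKM was also lowest in siNC replicate 1 and siCNN3 replicate 3 of their groups. Averaged over the 10 genes, the difference from the siNC mean on the log2(FPKM + 1) scale was -0.42, 0.41 and 0.02 for the siNC libraries and 2.56, 2.49 and 1.64 for the siCNN3 libraries, in the order of their numbers. The order did not follow that of Cnn3, which was least reduced in siCNN3 replicate 2.
By level, B2m came first in both groups, followed by Tapbp, Psme2, Psme1 and Psmb10. B2m exceeded Tapbp in every library without overlap, and Tapbp exceeded Psme2 in every library although their ranges overlapped in both groups. In siNC, the genes below Psmb10 were Tapbpl, Tap2, Tap1, Psmb8 and Psmb9, and the range of each overlapped with that of the next except for Tap1 and Psmb8. In siCNN3 the order was Psmb8, Psmb9, Tap1, Tapbpl and Tap2, and the range of each overlapped with that of the next. Within libraries, Psmb8 and Psmb9 exceeded Tapbpl and Tap2 in every siCNN3 library, and Tap1 exceeded Tap2 in every one. Tap1 was below Tapbpl in siCNN3 replicate 1 and above it in the other siCNN3 libraries.

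The other genes of the pathway were taken from lists chosen by function. Of 40 tested proteasome genes that are not inducible subunits (the replaced subunits and activators above, 11 core subunits, 6 assembly factors or inhibitors and 18 genes of the 19S regulatory particle), limma called 0. Without adjustment, 17 had a p below 0.05 with a higher level and 1 with a lower one, compared with 1155 and 712 of all 11602 genes. Their median log2 fold change was 0.31, compared with 1.73 for the peptide loading and immunoproteasome genes, with a range from -0.33 to 0.73. They were nevertheless mostly on one side, since 38 of the 40 were above 0 and 47.5% had every siCNN3 library above every siNC library, compared with 13.8% of all genes. The lowest adjusted p was that of the ATPase subunit Psmc6 (0.0738, limma, chosen after its value was seen).
Of 10 chaperones, trimming enzymes and translocon genes of the endoplasmic reticulum, limma called 0, and without adjustment 1 higher and 1 lower gene had a p below 0.05. The higher one was Erap1, which trims peptides to the length that class I molecules bind. It was at 1.73, 4.66 and 2.33 FPKM across the siNC libraries and 14.9, 11.7 and 6.63 FPKM across the siCNN3 libraries (log2 fold change 1.64 ± 0.360 SE, adjusted p = 0.0802, from 0.0341 to 0.272 over the alternatives, chosen after its values were seen). Calnexin (Canx) is known to assist the early folding of class I heavy chains, and calreticulin (Calr) and Pdia3 to join tapasin in the loading complex. Calr, Canx and Pdia3 had log2 fold changes of -0.25, -0.06 and -0.02 (adjusted p = 0.598, 0.828 and 0.959, limma). Of 8 cytosolic peptidases, limma called 0, also at an unadjusted p below 0.05, and their log2 fold changes lay between -0.66 and 0.23.
Class I heavy chains pair with B2m. Of 10 tested class I genes 6 were called higher, and the largest changes were those of H2-K1 (41.6 ± 10.5 to 339 ± 59.5 FPKM, log2 fold change 3.01, adjusted p = 0.00473, limma), H2-Q4 (log2 fold change 2.80, adjusted p = 0.0051) and H2-T22 (2.19, adjusted p = 0.00473). Class I genes are so alike that reads can be split between them. The FPKM of B2m was 2.63, 2.83 and 2.68 times the summed FPKM of the listed H2 heavy chains in siNC and 1.83, 1.63 and 2.16 times in siCNN3.

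**Figure D4:**
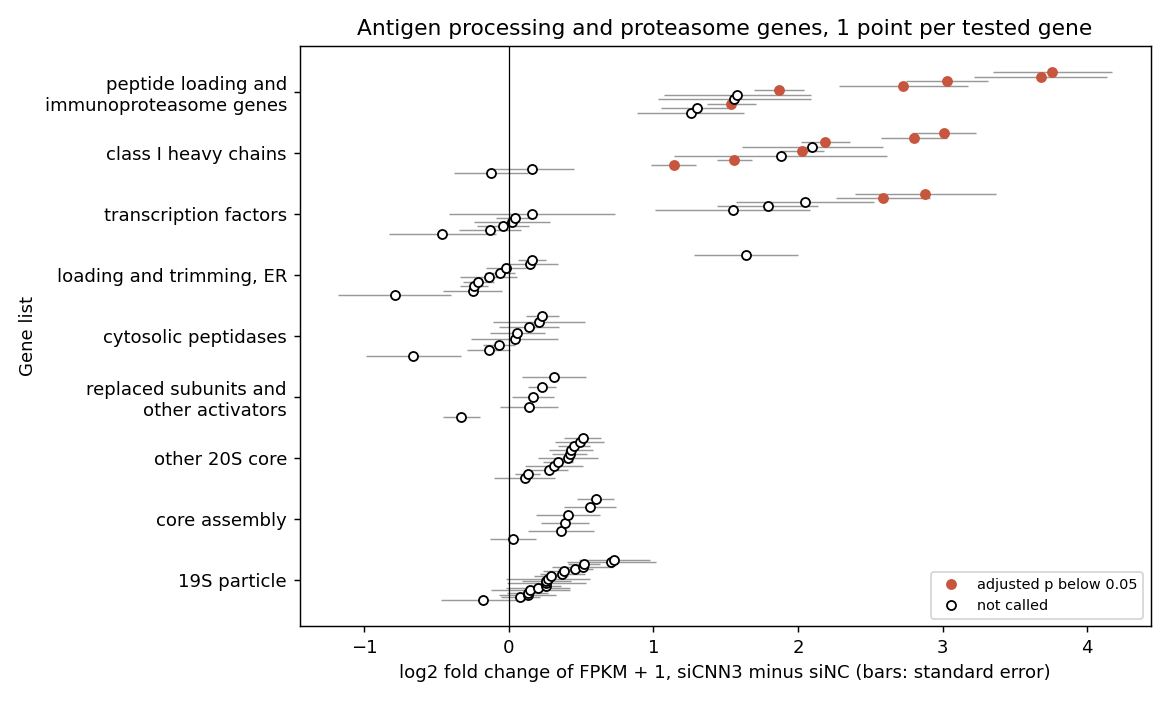
Log2 fold change of FPKM + 1 between siCNN3 and siNC (x axis, bars are standard errors) of each tested gene, grouped by list (y axis), with called genes filled and other genes open. All genes of the first list lie between 1.26 and 3.76, whereas the 4 proteasome lists at the bottom lie between -0.33 and 0.73 and hold no called gene.

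Transcription factors known to act on these promoters were examined as well. Nlrc5, the transactivator of class I genes, was at 0.289, 0.420 and 0.560 FPKM across the siNC libraries and 10.1, 10.2 and 4.01 FPKM across the siCNN3 libraries (log2 fold change 2.59, adjusted p = 0.0157, limma). Most of its FPKM was given to ENSMUST00000211816.1 in siCNN3 replicate 1 and to ENSMUST00000053085.11 in the other siCNN3 libraries. With transcripts listed at 0 in any library left out the log2 fold change was 0.75 (adjusted p = 0.621). Dropping any library other than siNC replicate 2 or siCNN3 replicate 3 ended the call of Nlrc5 (adjusted p up to 0.0842, from 0.000801 to 0.621 over all alternatives). Irf1, known to bind the promoter that Tap1 and Psmb9 share, was not called (11.6, 21.7 and 8.19 FPKM against 40.6, 39.8 and 62.9 FPKM, adjusted p = 0.0582, limma, from 0.0246 to 0.324 over the alternatives). Irf1 was highest in siCNN3 replicate 3, the library in which 9 of the 10 genes were lowest. Stat2 and Irf9, also not called (adjusted p = 0.0906 and 0.22, limma), were lowest there among the siCNN3 libraries (41.5 and 21.1 FPKM). Irf2, Rela, Nfkb1, Rfx5, Rfxap and Rfxank had log2 fold changes between -0.46 and 0.16 and were not called. The part of these factors in the change of the 10 genes was not tested.
Of the interferon genes, Ifnb1 (chosen after its values were seen) was listed at 0, 0.225 and 0 FPKM across the siNC libraries and 6.60, 7.79 and 1.01 FPKM across the siCNN3 libraries, with its lowest siCNN3 value in replicate 3 (adjusted p = 0.0974, limma, from 0.00139 to 0.305 over the alternatives). Ifna4 was listed at 0 in all siNC libraries and at 2.08, 2.53 and 0.137 FPKM in siCNN3 (adjusted p = 0.220), and Ifng was below 1 FPKM in every library and was not tested.
The 5 other genes whose log2(FPKM + 1) followed the mean of the 10 genes most closely over the 6 libraries were Tbrg1, Apobec1, Ifi204, Nop14 and Oas1a, with Pearson correlations from 0.9985 to 0.9996. These points share the same 2 groups, so that any gene that differs between the groups scores highly. Tbrg1, with the highest correlation, had a log2 fold change of 0.66 and was not called (adjusted p = 0.0519, limma). Oas1a, an oligoadenylate synthetase that senses double-stranded RNA, had the lowest correlation of the 5. It was at 0.129, 2.27 and 0.617 FPKM across the siNC libraries and 93.0, 85.3 and 24.2 FPKM across the siCNN3 libraries.

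Other cell types carry immunoproteasome genes, and their markers were examined. In bulk RNA, fewer cells of a type and less RNA per cell cannot be told apart. Of 20 markers of blood and immune cells, 17 were not among the genes to which deposited transcripts could be assigned, the leukocyte marker Ptprc among them. The other 3 (Cd68, Lyz2 and Cd52) summed to between 3.12 and 4.04 FPKM in siCNN3, and to 11.7, 5.75 and 4.72 FPKM in siNC replicates 1, 2 and 3, and limma called 0 of the 2 tested, also at an unadjusted p below 0.05. Of 12 tested muscle markers limma called 4 lower (Acta1, Tnnt3, Myh3 and Mylpf) and 0 higher, compared with 0.336% of all genes called lower. Without adjustment, 9 were lower and 1 higher at a p below 0.05. The higher one was Myf5 (4.68 to 9.93 FPKM on average, log2 fold change 0.88). The sum of the listed markers was between 120 and 133 FPKM in siCNN3 and between 185 and 220 FPKM in siNC. Des made up most of this sum in every library. Markers of red blood cells were listed as well, with a sum of 49.9 to 72.7 FPKM in siCNN3 and 224 to 653 FPKM in siNC, and 2 of 4 were called lower. Of 5 endothelial markers Tek alone was among the assigned genes, and limma called 0 (also at an unadjusted p below 0.05). The part of muscle and red blood cell markers in the change of the peptide loading genes was not tested.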

How the data were processed

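The authors deposited FPKM for 24023 Ensembl transcripts in 3 siNC and 3 siCNN3 libraries. The submitters' processing notes name Bowtie 0.12.2 and the builds mm8 and mm10 without their roles, and the program that made the FPKM is not given in the sources used here. Identifiers without version were matched to GENCODE M21 (GRCm38), which placed 23959, and FPKM were summed per gene symbol. The 64 unmatched transcripts held at most 0.136% of a library. Read numbers are not given, so depth is unknown. The 11602 genes that averaged 0.5 FPKM or more entered limma 3.58.1 (R 4.3.3, log2(FPKM + 1), eBayes with trend). Their p-values were adjusted together by Benjamini-Hochberg, a gene being called below 0.05. The script was first tested on simulated data. Shares were compared with an exact permutation test in scipy 1.17.1. Promoters were searched in Python 3.11.15, and Psme2b was aligned with Biopython 1.88.

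The members and lists were chosen with earlier results of these data known. Named were all 10 members, Cnn3, up to 3 called genes per list by size of change, the replaced subunits and other activators, and the 5 genes most alike in pattern. Other genes (Psme2b, Psmc6, Erap1, Calr, Canx, Pdia3, Irf1, Irf2, Irf9, Stat2, Rela, Nfkb1, Rfx5, Rfxap, Rfxank, Ifnb1, Ifna4, Ifng, Ctss, Cd74, Ciita, H2-T10, Mr1, Cd1d1 and named cell markers) were picked with their values known. The alternatives were another pseudocount (0.1), no filter or one at 5 FPKM, 3 other scalings, limma without a trend, a replicate block, leaving out single libraries, the most abundant transcript alone, and transcripts listed at 0 left out. Summing Psme2 and Psme2b was added after the data were seen. The result for 1 listed gene is not reported here.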

Additional observations from a re-analysis of the deposited data

How the results depend on the processing

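In every fit all fitted peptide loading and immunoproteasome genes were above 0, 10 of 10 in each, and 9 of 9 with transcripts listed at 0 left out, where Psmb8 was not fitted. Between 0 and 7 of them were called with 1 library left out, and between 4 and 7 under the other alternatives. Over all genes, 201 were called higher and 39 lower, with a range of 16 to 448 higher and 4 to 163 lower when 1 library was left out. The most abundant transcript alone gave 100 higher and 22 lower genes and ended the calls of Tap1 and Psmb10 (adjusted p = 0.0512 and 0.0673). Transcripts listed at 0 left out gave 125 higher, median-of-ratios scaling gave 63 lower and quantile normalization 93 lower. The cause was not tested. Leaving out 1 library gave differences in the shares of 21.4 to 27.5 percentage points for Psmb8, 7.71 to 12 for Psmb9, 19.2 to 27.6 for Psmb10 and 9.29 to 13.1 for Psme1 and Psme2.
A pairing of the samples by replicate number was not shown. Deviations from the group means correlated at -0.277, 0.314 and -0.0243 across genes for replicates 1, 2 and 3, and not every library correlated best with its own number. Such deviations cancel out within a group, so these correlations depend on one another and cannot exclude a pairing. With the replicate block, limma called 62 genes higher and 6 lower, and 5 of the 10 genes, Psmb10 not among them (adjusted p = 0.0739).
With 3 libraries per group, FPKM without read numbers and values at 0 that may be failed estimates, differences in genes near 0 FPKM cannot be measured closely.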

Other observations

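Class II molecules, which present peptides taken up from outside the cell, were looked at beside the class I genes. Of 4 tested class II and loading genes limma called 0, and 1 was higher at an unadjusted p below 0.05. This was Ctss, the lysosomal protease cathepsin S, which was at 0.712, 0.355 and 0.247 FPKM across the siNC libraries and 11.7, 7.50 and 2.59 FPKM across the siCNN3 libraries (log2 fold change 2.36, adjusted p = 0.0527, limma), without overlap between the groups. Cd74, the invariant chain, was at 8.88, 4.19 and 2.45 FPKM across the siNC libraries and 10.4, 9.24 and 2.84 FPKM across the siCNN3 libraries, with overlapping groups (adjusted p = 0.722). Ciita, the transactivator of class II genes, was not among the genes to which deposited transcripts could be assigned.
Among the class I genes, H2-T10 was listed at 0 in all siNC libraries and in siCNN3 replicate 3, and had 7.19 and 5.03 FPKM in the first and second siCNN3 library. Mr1, a class I-like gene that presents vitamin metabolites, had overlapping groups (24.7 ± 5.19 FPKM under siNC and 23.1 ± 7.51 FPKM under siCNN3, SD, n = 3, adjusted p = 0.860, limma), as had the lipid-presenting Cd1d1 (adjusted p = 0.827).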
